A study of Mus musculus with 12 samples.

Results

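Ehf, Elf3, Erg, Fli1, Elf1, Ets1, Ets2, Elk3 and Etv6 are 9 members of the ETS family of transcription factors. They were taken by symbol from a table of 54227 gene symbols measured in mouse liver cells. Each symbol matched exactly 1 row, and all 9 genes passed the filter on low values. Ehf and Elf3 are here called the epithelial pair, Erg and Fli1 the endothelial pair, and Elf1, Ets1, Ets2, Elk3 and Etv6 the 5 broad members. These names follow where the genes are best known to act. They were not derived from these samples, and the levels below are set against them. The 9 genes and the gene lists below were, however, chosen with earlier results of these data known. Shares over all genes that stand beside their counts therefore give scale only.

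The cells came from livers of C57Bl/6 mice with a Sox9EGFP transgene, a reporter that makes a cell fluoresce green when Sox9 is active. In liver, Sox9 marks the bile duct epithelium and a few hepatocytes beside it. Sorting by green fluorescence gave 4 populations. In rising order they are named neg, sub, low and high. Each population had 3 libraries of 12000 cells, profiled by total RNA sequencing. All 4 populations share the strain, the transgene and a 16 h fast before the liver was taken apart, so neg is the EGFP-negative part of the same kind of liver and not a liver without the transgene. Age and sex of the mice were not given in the sources used here. The column headers give the 3 libraries of a population different codes. Each code is shared by the same-numbered libraries of the other populations, and its meaning is not given. The labels do not say that libraries of a population came from separate animals, so the p-values measure the spread between these libraries, which may be partly technical.

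Library depth was 8775387 to 15535588 reads, and 9039 to 12687 genes were above 0 in a library. Values below are the deposited normalised counts, in which 1 read is worth 0.691 to 1.22 units depending on the library. A population in which a gene had no read in any library is compared through a floor of 3 reads at the value of its shallowest library, which covers counting error only. Zeros were common: of 3920 genes with a mean of at least 500, 1384 (35.3%) were at 0 in 1 or more libraries. That count includes genes at 0 in every library of a population, so it does not measure spread between libraries of a population. Of the 9 ETS genes, 3 (Elf1, Ets1 and Ets2) were above 0 in all 12 libraries. The test was limma on log2(normalised count + 1) over 16128 genes, with a Benjamini-Hochberg adjusted p under 0.05 as the threshold. Comparisons with neg share the same neg libraries, and comparisons with sub the same sub libraries, so they are not independent of each other.

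ETS proteins share a winged helix-turn-helix domain, the ETS domain, that binds DNA around the core GGAA. Members differ in the cells that make them, in their other domains and in their partners. Ehf and Elf3 belong to a subfamily made mainly by epithelia, including ducts and glands. Erg and Fli1 are close relatives that maintain endothelial identity, and Fli1 also acts in blood cells and megakaryocytes. Ets1 and Ets2 are paralogues that carry a Pointed domain and are activated by phosphorylation downstream of RAS and ERK. Elk3 is a ternary complex factor that binds DNA with serum response factor, Elf1 is widely made and related to Elf2 and Elf4, and Etv6 is a repressor with a Pointed domain.

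The promoter sequences of Elf3 and Erg are shown because they are the member of each pair that had entries in the sequence table, and because they can be searched for the core that the whole family binds. For Erg 2 of its 3 stretches are printed. They are RefSeq sequences (build GRCm38.p6) before annotated start sites, with bases inside GENCODE exons left out, on the minus strand in each case and written 5′ to 3′. Capitals mark GGAA or its reverse complement TTCC, which cannot overlap each other.

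Elf3, chr1:135258569-135258722: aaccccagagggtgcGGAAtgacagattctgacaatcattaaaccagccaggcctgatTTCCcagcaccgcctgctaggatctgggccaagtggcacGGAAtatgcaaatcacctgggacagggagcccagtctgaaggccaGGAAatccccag

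Erg, chr16:95586594-95586843: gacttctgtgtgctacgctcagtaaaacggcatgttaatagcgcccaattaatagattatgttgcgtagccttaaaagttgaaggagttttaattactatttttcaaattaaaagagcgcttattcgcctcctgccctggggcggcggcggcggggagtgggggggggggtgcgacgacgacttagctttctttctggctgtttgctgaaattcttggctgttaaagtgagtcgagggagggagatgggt

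Erg, chr16:95530366-95530615: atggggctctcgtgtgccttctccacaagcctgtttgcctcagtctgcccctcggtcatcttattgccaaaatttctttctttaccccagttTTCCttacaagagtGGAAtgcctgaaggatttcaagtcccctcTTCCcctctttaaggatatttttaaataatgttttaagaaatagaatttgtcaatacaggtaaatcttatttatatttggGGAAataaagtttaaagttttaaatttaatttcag

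The Elf3 stretch holds 4 copies of the core in 154 bases, the first Erg stretch none in 250 bases and the second Erg stretch 4 in 250. Over full windows of 300 bases around a start site, the Elf3 window held 4 copies and the 3 Erg windows 1, 4 and 2. These letters are common: 96.0% of the 32851 RefSeq windows of that length held at least 1 copy, the median was 3, and 46.3% held 4 or more. Windows were found for 6 of the 9 genes (Elf3, Erg, Elf1, Ets2, Elk3 and Etv6), 9 windows in all. Etv6 had the most copies, 6, a number that 15.7% of all windows reached.

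Ehf, the epithelial factor also known as ESE-3, was absent from the neg libraries and present in all others. The gene spans chr2:103263433-103303278 on the minus strand (mm10, GENCODE M21). Its normalised count was 0 in each of the 3 neg libraries, 1030, 1710 and 926 in sub, 3390, 3133 and 3222 in low, and 4792, 2651 and 3644 in high. No sub library reached the lowest low or high library, while low lay inside the range of high. Population means, with the SD of 3 libraries, were 1222 ± 426 for sub, 3248 ± 131 for low and 3696 ± 1072 for high. Against the neg floor of 3.67, Ehf was at least 333-fold higher in sub, at least 885-fold higher in low and at least 1007-fold higher in high, with limma adjusted p of 3.31e-05, 3.22e-06 and 2.45e-06. The sub call was lost in a fit of sub and neg alone (0.415, in a range over alternatives from 6.05e-20). Only 71 of the 16128 genes tested (0.44%) shared the pattern of 0 in every neg library and a value above 0 in the other 9. The step from sub to low was 1.46 ± 1.19 on the log2 scale (SE, adjusted p 0.719), that from low to high 0.15 ± 1.19 (adjusted p 1) and that from sub to high 1.61 ± 1.19 (adjusted p 0.685). So the Ehf differences that passed in limma were all against neg. DESeq2 on recovered reads also called high against sub (log2 fold change 1.60, adjusted p 0.0353, in a range over alternatives up to 0.724), where edgeR had 0.470.

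Elf3, its relative ESE-1, was likewise at 0 in neg and rose in low and high, but varied more between libraries and did not pass in sub. The gene spans chr1:135253575-135258568 on the minus strand, and an exon of it overlaps Gm26642 on the opposite strand. Elf3 was at 0 in all neg libraries, at 1475, 1.14 and 226 in sub, at 747, 2551 and 1147 in low, and at 398, 1485 and 411 in high. The value in sub 2 is 1 read, so sub ranged from near 0 to the level of low and high and overlapped with both. Mean values were 568 ± 794 in sub, 1481 ± 947 in low and 765 ± 624 in high. Elf3 rose from neg to low, at least 404-fold (log2 fold change 10.34 ± 2.25, adjusted p 0.00988), and to high, at least 208-fold (9.29 ± 2.25, adjusted p 0.0202). Both bounds use the population mean, which low 2 and high 2, the largest values, raised.

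Both Elf3 calls were lost when some single libraries were left out, while the fitted log2 fold changes stayed at 8.66 or more. Low against neg did not pass without low 2 (adjusted p 0.0626, log2 fold change 9.86) or low 3 (0.0545, 10.43), in a range over alternatives from 1.2e-09 to 0.0626. High against neg did not pass without any 1 of the neg or high libraries (0.061 to 0.103, with log2 fold changes of 8.66 to 9.61) or in a fit of these 2 populations alone (0.0566), in a range from 1.98e-08 to 0.103. Sub against neg gave 6.49 ± 2.25 and an adjusted p of 0.276. It was 0.00944 without sub 2, 0.00169 in edgeR and 9.27e-08 in DESeq2 on recovered reads, and 0.652, the highest value, in a fit of these 2 populations alone. Among EGFP-positive populations Elf3 differed by 3.86 (low against sub), 2.80 (high against sub) and -1.05 (high against low) on the log2 scale, each with an SE of 2.25 and an adjusted p of 0.609 or more.

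Erg, a regulator of endothelial junction and identity genes, was present in neg and sub and without a read in low and high. Its locus is chr16:95359169-95586593 on the minus strand. Its normalised count was 1082, 1552 and 1768 in neg and 1059, 758 and 1260 in sub. It was 0 in all 6 low and high libraries. Neg and sub overlapped (1467 ± 351 and 1026 ± 253), and the difference of -0.52 ± 2.15 on the log2 scale had an adjusted p of 1. Relative to neg, Erg fell at least 576-fold in low and at least 484-fold in high (adjusted p 0.00666 and 0.00638). It also fell relative to sub, at least 402-fold in low and at least 338-fold in high (adjusted p 0.0382 and 0.0312). Erg thus overlapped between EGFP-negative cells and the dimmest EGFP-positive population, and had no read from the next step on. Of all genes tested, 54 (0.335%) were above 0 in all 6 neg and sub libraries and at 0 in all 6 low and high libraries. The fall from sub to low did not pass under 5 of the 25 alternatives, in a range over alternatives from 4.56e-15 to 0.266. It was lost without sub 2 (adjusted p 0.0513), with quantile normalisation (0.0503) and with array weights (0.0512). It was also lost with a block for the replicate number (0.0596) and in a fit of these 2 populations alone (0.266). The fall from sub to high did not pass under 2 of the 25, in a range from 9.89e-15 to 0.156. These were the replicate block (0.0511) and a fit of sub and high alone (0.156).

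Fli1, the closest relative of Erg, had similar neg and sub levels but did not vanish from every low library. Its locus is chr9:32422204-32542861 on the minus strand. Fli1 was at 799, 1727 and 1765 in neg, at 607, 1567 and 846 in sub, at 2.23, 763 and 14.0 in low, and at 0.865, 0 and 1.63 in high. Neg and sub overlapped, low 2 reached into the range of sub, and the other 5 low and high libraries were at most 14.0. The high values amount to 3 reads in all. The neg mean was 1717 times the high mean (counting interval 588 to 8327) and the sub mean 1208 times (414 to 5860). Fli1 fell from neg to high by 9.63 ± 2.13 on the log2 scale (adjusted p 0.0111) and from sub to high by 9.10 ± 2.13 (adjusted p 0.0475).

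Low against neg gave -5.34 ± 2.13 for Fli1, with an adjusted p of 0.202 that became 0.0322 without low 2 (range over alternatives 0.0322 to 0.425). In low 2, Erg and the endothelial cadherin Cdh5 were both at 0, while Tal1 was at 150 there and at 0 in low 1 and low 3, and Vwf at 158 there and at 2.97 and 0.822 in low 1 and low 3. The summed level of 10 endothelial markers was 604 in low 2 beside 2084 and 756 in low 1 and low 3. The sum of 12 endothelial genes known as ERG or FLI1 targets ran otherwise, at 1456 in low 2 beside 1330 and 745, and so did that of 8 partner factors, at 582 beside 157 and 419. The part of these levels in the Fli1 value was not tested. High against low gave -4.29 ± 2.13 (adjusted p 1). DESeq2 on recovered reads called that difference (3.57e-05), in a range over alternatives up to 1. The call for high against sub was lost under 14 of the 25 alternatives, in a range from 5.88e-08 to 0.156. Among them were the fits without any 1 of the neg, sub or high libraries (adjusted p 0.0624 to 0.139) and the replicate block (0.0578).

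**Figure D1:**
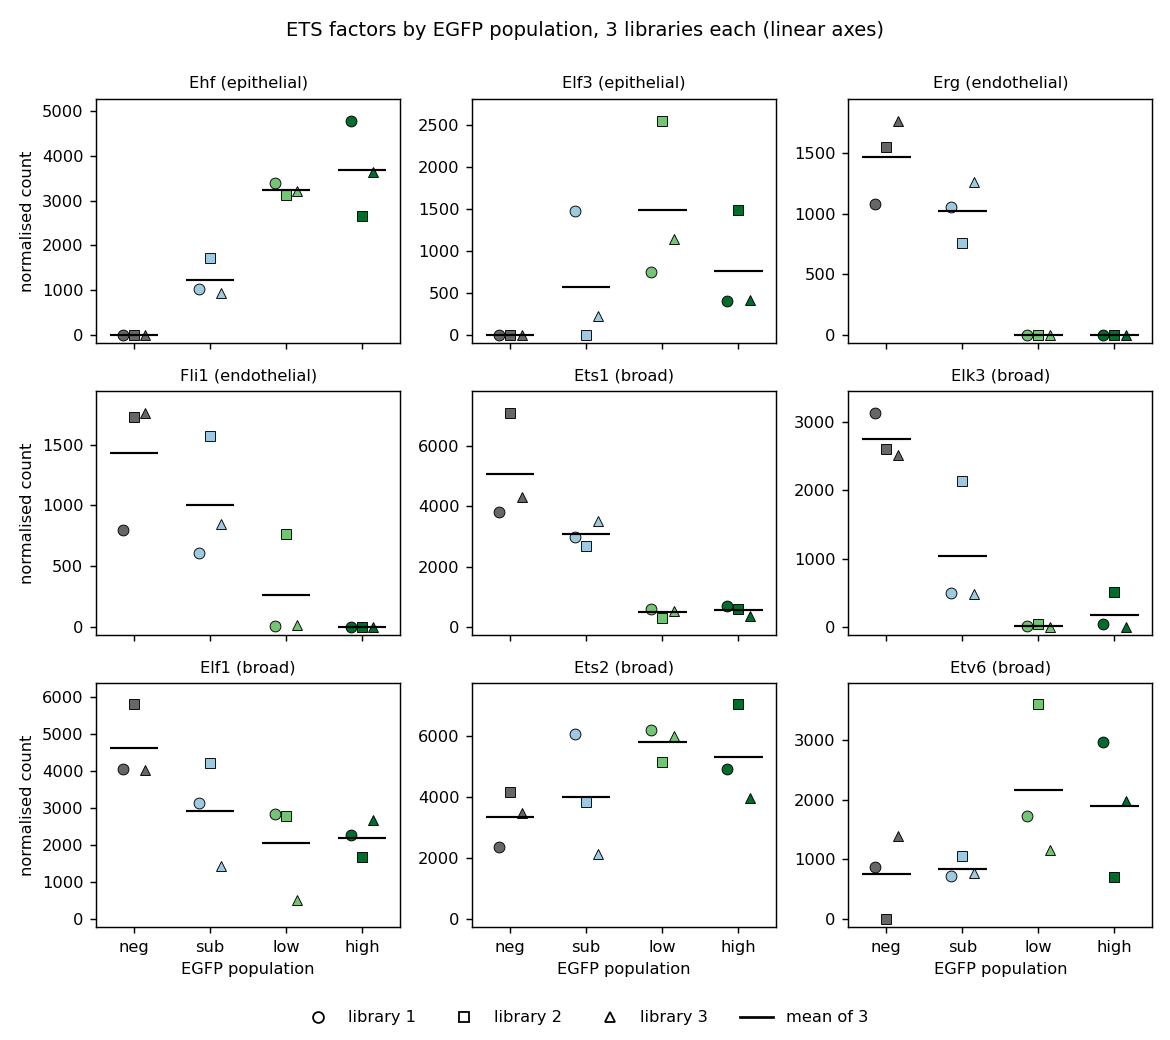
Normalised counts of the 9 ETS genes on linear axes by EGFP population, with 1 point per library and a line at the mean of 3. Ehf and Elf3 sit at 0 in every neg library, Erg at 0 in every low and high library, and Ets2, Elf1 and Ets1 are above 0 throughout.

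Ets1, best known from lymphocytes, endothelium and stroma, was the broad member with the clearest difference. It sits at chr9:32636221-32757820 on the plus strand, 93359 bases from Fli1. Its normalised counts were 3800, 7113 and 4295 in neg, 2994, 2688 and 3522 in sub, 602, 304 and 520 in low, and 678, 589 and 363 in high. The populations separated into neg above sub and sub above both low and high, with low and high overlapping. Ets1 fell from 5069 ± 1787 in neg to 475 ± 154 in low, 10.7 times lower (log2 fold change -3.41 ± 0.64, adjusted p 0.0033). In high it was 543 ± 162, 9.33 times lower than in neg (-3.21 ± 0.64, adjusted p 0.00504). Ets1 kept a measurable level in low and high, where Erg had none. Both calls were lost in a fit without the variance trend (adjusted p 0.0666 and 0.0795, the highest of their alternatives, against lowest values of 1.42e-09 and 1.24e-08).

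Relative to sub, at 3068 ± 422, Ets1 was 6.45 times lower in low (-2.74 ± 0.64, adjusted p 0.0525) and 5.65 times lower in high (-2.54 ± 0.64, adjusted p 0.0695), neither of which passed. The libraries did not overlap in either comparison, a pattern that 5.99% and 5.91% of genes showed in that direction. Leaving out some libraries brought the low difference under 0.05: each neg library (0.0262 to 0.0344), each high library (0.0226 to 0.0302), sub 1 (0.046), low 1 (0.027) or low 3 (0.0444), in a range over alternatives of 2.88e-06 to 0.293. The high difference passed without any neg library (0.0301 to 0.0365), any low library (0.0266 to 0.0318) or high 1 (0.0446), in a range of 1.84e-05 to 0.316. Sub against neg gave -0.68 ± 0.64 (adjusted p 0.745).

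Elk3, also called Net, was high in neg and uneven elsewhere. It sits at chr10:93247414-93311135 on the minus strand and shares exon positions with Cdk17 on the opposite strand. Elk3 was at 3141, 2601 and 2516 in neg, 492, 2141 and 475 in sub, 9.65, 39.1 and 0 in low, and 32.9, 505 and 0 in high. Neg lay above every other library. High 2 was above 2 of the 3 sub libraries, whereas the low libraries were all below sub. Elk3 fell from 2753 ± 339 in neg to 16.2 ± 20.4 in low (log2 fold change -8.51 ± 2.15, adjusted p 0.0265). In high it was 179 ± 283 (-6.73 ± 2.15, adjusted p 0.0857). The low call was lost when any neg library (0.108 to 0.116), any sub library (0.0573 to 0.0641), low 1 (0.0927), low 3 (0.131) or high 1 (0.067) was left out, without the variance trend (0.0514) and in a fit of these 2 populations alone (0.0774), in a range of 0.00639 to 0.131. High against neg passed without high 2 (0.0401, range 0.0376 to 0.27). Low against sub gave -6.72 ± 2.15 (adjusted p 0.193) and high against sub -4.95 ± 2.15 (0.424).

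Elf1, Ets2 and Etv6 had no contrast past the threshold. Elf1 (chr14:79481194-79582494, plus strand) shares exon positions with Wbp4 on the opposite strand. It was at 4040, 5791 and 4021 in neg, 3119, 4208 and 1427 in sub, 2824, 2780 and 498 in low, and 2253, 1667 and 2655 in high. Every neg library was above every low and high library, and the other populations overlapped. Its log2 fold change was -1.53 ± 0.62 for low against neg (adjusted p 0.206; -0.70 without low 3) and -1.08 ± 0.62 for high against neg (0.418).

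Ets2 (chr16:95702075-95721051, plus strand) lies 115481 bases from Erg. Its normalised count was 2358, 4173 and 3462 in neg, 6085, 3827 and 2136 in sub, 6217, 5173 and 6017 in low, and 4933, 7054 and 3973 in high. Low lay above neg in every library, and all other pairs of populations overlapped. The difference between low and neg was 0.84 ± 0.39 on the log2 scale (adjusted p 0.304), and that between high and neg 0.67 ± 0.39 (0.431). Ets2 thus held at least 3973 normalised counts in each of the 6 low and high libraries, where its neighbour Erg had no read.

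Etv6 (chr6:134035700-134270158, plus strand) overlaps Gm17089 on the opposite strand. It was at 866, 0 and 1398 in neg, 714, 1052 and 763 in sub, 1726, 3603 and 1147 in low, and 2972, 702 and 1984 in high. Neg 2 had no read of it. Low against neg was 4.17 ± 1.80 (adjusted p 0.249), and the low mean of 2159 ± 1284 was 2.86 times the neg mean of 755 ± 705. Sub against neg was 2.96 ± 1.80 (adjusted p 0.673), and high against neg 3.91 ± 1.80 (0.283). Without neg 2 these 3 fitted values were 0.81, -0.41 and 0.55. Low lay above sub in every library (1.21 ± 1.80, adjusted p 0.863), and the remaining pairs of populations overlapped.

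Counted by contrast, the 9 genes gave these calls. Because they were chosen with earlier results of these data known, the shares over all genes do not test the set. In sub against neg 1 gene rose, Ehf, where 1.19% of all genes tested were called, 1.04% higher and 0.149% lower. In low against sub 1 gene fell, Erg, against 0.744% of all genes, 0.13% higher and 0.614% lower. In high against low 0 were called by limma among the 9, and 0.0% among all genes. Without adjustment 684 genes had a p under 0.05 there, and none of the 9 was among them. For that contrast edgeR called 34 genes, none of them among the 9, and DESeq2 called 646 including Fli1. In low against neg 5 were called, Ehf and Elf3 higher and Erg, Ets1 and Elk3 lower, beside 4.69% of all genes, 2.55% higher and 2.15% lower. In high against neg 5 were called as well, Ehf and Elf3 higher and Erg, Fli1 and Ets1 lower, also beside 4.69%, with 2.44% higher and 2.25% lower. In high against sub 2 fell, Erg and Fli1, beside 0.986%, with 0.118% higher and 0.868% lower. A moderated F test over the 4 populations passed 5 of the 9 (Ehf 3.39e-06, Erg 0.00237, Ets1 0.00259, Fli1 0.0215 and Elf3 0.0269), beside 4.23% of all genes. Of 23 alternatives for this test the Elf3 call was kept in 13 (up to 0.120, and lost without any 1 of the neg, low or high libraries or without sub 3). The Fli1 call was kept in 15 (up to 0.0759, and lost without any 1 of the neg or high libraries, sub 2 or sub 3), and the Ets1 call in 22 (0.0953 without the variance trend). Elk3 was at 0.0537, and Etv6, Elf1 and Ets2 at 0.485 to 0.529. Over 25 alternative settings, the calls for Ehf and Erg in low and high against neg and for Fli1 in high against neg were kept in all 25.

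The count tests on recovered reads gave these numbers. In the order sub against neg, low against sub, high against low, low against neg, high against neg and high against sub, edgeR called 2, 1, 0, 5, 5 and 2 of the 9, where it called 1.28%, 1.11%, 0.211%, 3.73%, 3.84% and 1.41% of all genes. DESeq2 called 2, 2, 1, 4, 5 and 4 of the 9, where it called 10.5%, 9.88%, 4.01%, 14.6%, 14.0% and 9.21% of all genes. Over the 4 populations edgeR called 6 of the 9 (3.79% of all genes) and DESeq2 5 (5.77%).

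Separation of the 3 libraries of a population from the 3 of another was also counted, without a test. From neg to sub, Ehf and Elf3 lay higher without overlap (4.69% of all genes did) and Ets1 and Elk3 lower (4.99%), though for Elf3 this rests on 1 read in sub 2, fewer than the 3 that a value of 0 allows. From sub to low, Ehf and Etv6 lay higher (5.75%) and Erg, Ets1 and Elk3 lower (5.99%). From low to high, none lay higher (4.06%) and Fli1 lay lower (3.28%), by 3 reads in low 1 against 2 in high 3. From neg to low, Ehf, Elf3 and Ets2 lay higher (8.38%) and Erg, Fli1, Elf1, Ets1 and Elk3 lower (8.52%). From neg to high, Ehf and Elf3 lay higher (10.2%) and the same 5 lower (8.61%). From sub to high, Ehf lay higher (7.2%) and Erg, Fli1 and Ets1 lower (5.91%). Ets2 and Elf1 were thus set apart from neg in low without passing the test.

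**Figure D2:**
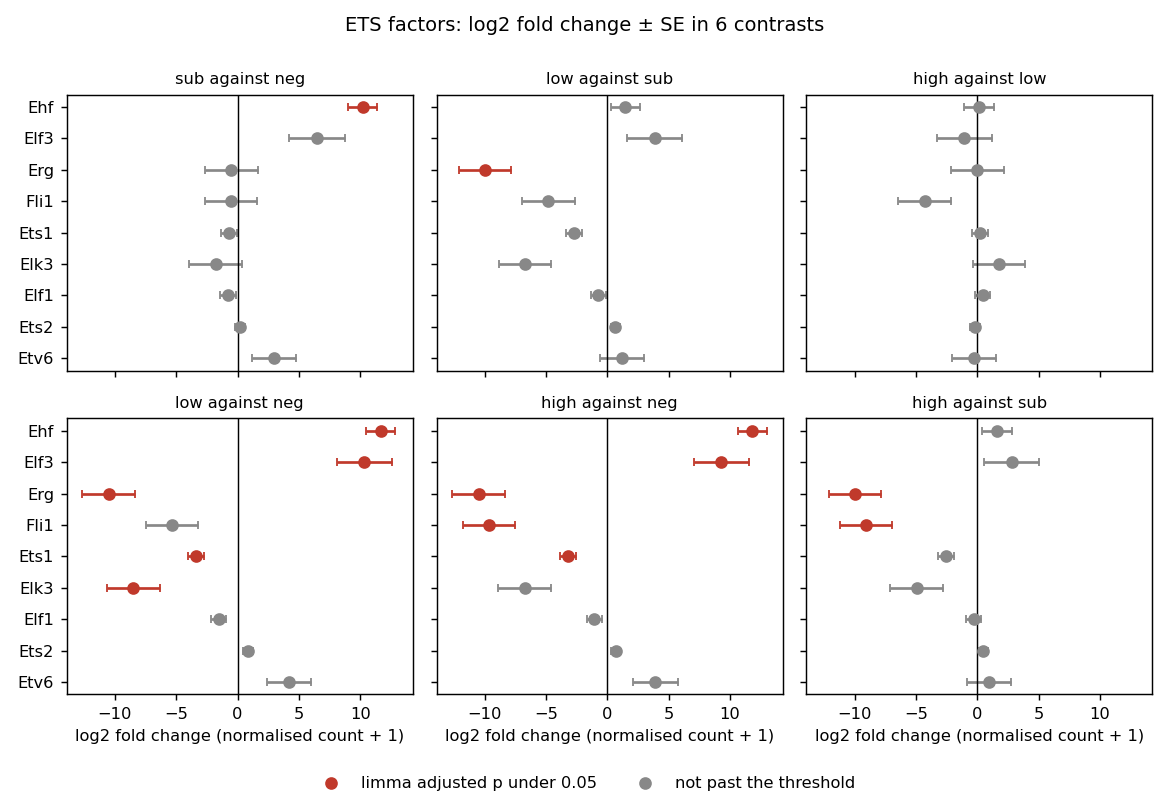
Log2 fold changes of the 9 genes with SE bars in the 6 contrasts between populations, with red points for a limma adjusted p under 0.05 and grey points otherwise. Against neg, Ehf and Elf3 lie on the positive side and Erg, Fli1, Ets1 and Elk3 on the negative side, while high against low has no red point.

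Levels of different genes were compared per kilobase of the longest coding transcript, since longer transcripts give more reads. On that scale the 9 genes summed to 4613 ± 838 for neg, 3882 ± 962 for sub, 3960 ± 809 for low and 3557 ± 420 for high. The totals overlapped between populations. The epithelial pair made up 0% of the neg sum, 13.6 ± 6.06% of the sub sum, 36.0 ± 5.84% of the low sum and 33.5 ± 0.545% of the high sum. For the endothelial pair these shares were 19.0 ± 4.14%, 16.9 ± 6.00%, 1.63 ± 2.70% and 0.00766 ± 0.00801%. In low the endothelial share came mainly from Fli1 in low 2, where it was 4.76%. The 5 broad members carried most of the sum in every library, from 55.6% in low 2 to 84.8% in neg 1. Each sub library held both pairs, with 8.94 to 20.4% for the epithelial and 11.1 to 23.1% for the endothelial pair. In low 2 these shares were 39.7% and 4.76%. In bulk libraries fewer cells of a type and less RNA per cell cannot be told apart, nor can cells that make both pairs from a mixture of cells that make 1 pair each.

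**Figure D3:**
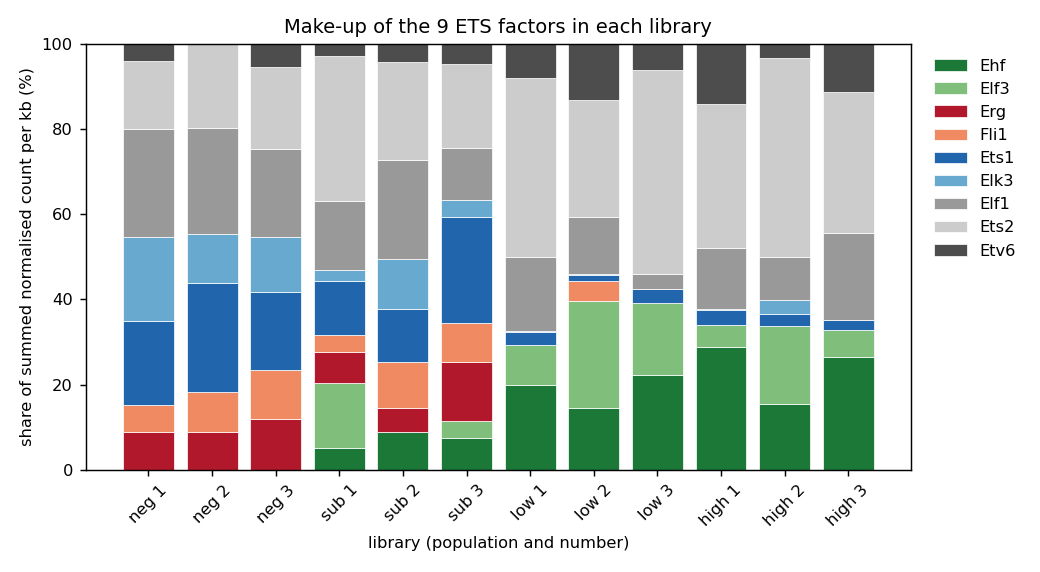
Share of each of the 9 genes in their summed normalised count per kilobase, in percent, as stacked bars from 0 for each of the 12 libraries. Ehf and Elf3 are missing from the 3 neg bars and Erg from the 6 low and high bars, and Ets2 takes 27.5 to 47.7% of each low and high bar.

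The order of levels per kilobase changed between populations. In neg it was Elf1 (mean 1090), Ets1 (998), Ets2 (856), Elk3 (654), Erg (452), Fli1 (431) and Etv6 (132), with Ehf and Elf3 at 0. Neighbours in that order overlapped over the 3 libraries apart from Elk3 and Erg. In sub the order began with Ets2 (1032), Elf1 (689) and Ets1 (604), and Erg (316), Fli1 (303), Ehf (273), Elf3 (271), Elk3 (246) and Etv6 (148) followed. Only Ets1 and Erg did not overlap among the neighbours there. Low was led by Ets2 (1492), which was above Ehf (727) in each library. Elf3 (707), Elf1 (480) and Etv6 (378) overlapped with their neighbours, and Ets1 (93.6), Fli1 (78.3) and Elk3 (3.86) came after, with Etv6 above Ets1 in each library. In high Ets2 (1368), Ehf (827), Elf1 (518), Elf3 (365), Etv6 (331), Ets1 (107) and Elk3 (42.6) overlapped from each to the next. The paralogues Ets1 and Ets2 overlapped in neg and stood apart in low and high, where Ets1 took 1.24 to 3.58% of the sum and Ets2 at least 27.5%.

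Across the 12 libraries, log2 levels of Erg and Ets1 had a Pearson correlation of 0.967, Ehf and Elf3 of 0.844, and Erg and Fli1 of 0.843. Erg and Ehf had -0.702. These values describe the same 12 libraries in 4 blocks, and a gene that is at 0 in a whole block correlates with any other such gene. Among 9613 genes with a mean of at least 100, those most like Ehf were Wwc1 (0.997), Spp1 (0.997) and Slc5a1 (0.997). Mbp (0.991) and Tuft1 (0.981) were among those most like Elf3, Dchs1 (0.997), Jam2 (0.996) and Bcl6b (0.996) most like Erg, and Hip1 (0.977), Smoc2 (0.974) and Tal1 (0.972) most like Fli1. The genes most like Ehf were at 0 in every neg library, and Mbp and Tuft1 were at 0 in neg and in sub 2. Hip1, Smoc2 and Tal1 were above 0 in low 2, as Fli1 was.

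No other ETS gene passed in limma. Of 17 other members, 12 were tested and 0 were called in any of the 6 contrasts or the F test, with 0 to 2 at an unadjusted p under 0.05 in each. On recovered reads edgeR called 0 as well, and DESeq2 called 1, Etv4, higher in sub, low and high than in neg. DESeq2 called 10.5%, 14.6% and 14.0% of all genes in these 3 contrasts. Etv4 was at 0 in neg and in 2 of the 3 sub libraries and reached 396 in low. The lowest F test adjusted p was 0.301, for Etv4. Elf2, Elf4, Elk4, Erf and Gabpa were above 0 in all 12 libraries. Elf2 ranged from 285 to 2503 normalised counts with a median of 1424, and Gabpa, the ETS subunit of the GABP complex, from 108 to 848 with a median of 278. Etv2, Fev, Spdef, Spi1 and Spib were at 0 in all libraries. Spi1 encodes PU.1, the ETS factor of macrophages and B cells.

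Endothelial genes known as ERG or FLI1 targets were lowest in low and high, where Erg was at 0. Of 12 such genes 10 fell in low against neg and the same 10 in high against neg, 8 fell in high against sub, 4 in low against sub (Cdh5, Vwf, Robo4 and Pecam1) and 0 passed in sub against neg, where limma had 0 and edgeR 2 at an unadjusted p under 0.05 and neither edgeR nor DESeq2 called any. In that order of contrasts, limma called 2.15%, 2.25%, 0.868%, 0.614% and 0.149% of all genes tested as lower. All 12 had negative fitted changes in each of these 5 contrasts. The median log2 fold change was -9.39 in low against neg and -7.97 in low against sub, where the median of all genes was 0. In sub against neg it was -1.30, and 8 of the 12 lay lower in sub without overlap, as 4.99% of all genes did. Erg itself overlapped between sub and neg. In high against neg the median was -10.89, or -9.77 with genes at 0 set to their bound, beside 0.13 for all genes. Cdh5, the cadherin of endothelial junctions, was at 12116, 8857 and 8528 in neg, 3735, 5189 and 4036 in sub, 8.16, 0 and 0 in low, and 0, 50.5 and 0 in high. Pecam1, an adhesion molecule of endothelium and platelets, went from 12115 ± 2811 in neg and 6869 ± 2086 in sub to 575 ± 119 in low (adjusted p 0.000198 against neg), so it kept a level that Erg did not. The summed level of the 12 genes was 86458 to 111844 in neg, 29425 to 40676 in sub, 745 to 1456 in low and 526 to 840 in high. Most of this list are also general endothelial markers, so its counts cannot be told apart from the number of endothelial cells in a gate.

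Partner factors of ERG and FLI1 in endothelium and blood were counted next. Of 8 genes 7 were tested: Gata2 fell in low against neg, Tal1, Lmo2 and Gata2 fell in high against neg (1 and 3 genes, where edgeR called 1 and 1 and DESeq2 4 and 5), and 0 passed in limma in the other 4 contrasts. Among those 4, 4 genes had an unadjusted p under 0.05 in limma in low against sub, 4 in high against sub and 0 in the others. DESeq2 called 3 in low against sub (Gata2, Sox7 and Sox17), 5 in high against sub (these 3, Tal1 and Lmo2), 1 in high against low (Tal1) and 0 in sub against neg, and edgeR called 1, Sox7 in low against sub. Over all genes DESeq2 called 9.88%, 9.21%, 4.01% and 10.5% in these 4 contrasts, and edgeR 1.11% in low against sub. In low and high against neg, limma called 2.15% and 2.25% of all genes as lower. There edgeR called 3.73% and 3.84% in either direction, and DESeq2 14.6% and 14.0%. Gata2 was at 1143, 260 and 276 in neg, 237, 223 and 723 in sub, and 0 in all low and high libraries. Sox7 had an F test adjusted p of 0.162.

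Epithelial genes were counted beside Ehf and Elf3. Of 20 genes of an epithelial programme 19 were tested. In sub against neg 7 rose (Klf5, Cdh1, Epcam, Cldn3, St14, Krt8 and Krt18), in low against neg 12 and in high against neg 10. Among all genes tested, limma called 1.04%, 2.55% and 2.44% as higher in these contrasts. Among EGFP-positive populations 0 passed in limma, with 3 at an unadjusted p under 0.05 in low against sub, 1 in high against low and 2 in high against sub. In low against sub edgeR called Cdh1 (beside 1.11% of all genes), and DESeq2 called Cdh1 and Cldn3 (beside 9.88%). In high against sub edgeR called Cdh1 (beside 1.41%), and in high against low both count tools called 0 of the list. The median log2 fold change was 5.95 (6.25 with bounds) in sub against neg, 8.97 (7.61) in low against neg and 8.22 (7.29) in high against neg. Cdh1, the epithelial cadherin, was at 1.38, 1.22 and 0.966 in neg, 7884, 2118 and 3635 in sub, 16645, 17484 and 13224 in low, and 13403, 13973 and 10677 in high. Krt8 and Krt18, the keratins of simple epithelia, also rose from neg to sub, by 11.34 ± 1.08 and 9.91 ± 1.33 on the log2 scale. The low libraries of Cdh1 were all above sub, as for Ehf.

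Kinases and co-regulators that act on ETS proteins did not pass. Of 13 genes 0 were called by limma, edgeR or DESeq2 in any contrast or in the F test, and 0 to 4 had an unadjusted p under 0.05 in limma. Srf, the partner of Elk3, had the lowest F test adjusted p, 0.157. Mapk3, which encodes ERK1, was at 744, 530 and 814 in neg, 227, 0 and 0 in sub, 485, 242 and 0.822 in low, and 701, 517 and 333 in high (F test adjusted p 0.304).

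Endothelial, stellate, biliary and hepatocyte marker lists differed between the populations as some of the ETS genes did. The summed level of 10 endothelial markers was 97392 to 141705 in neg, 30721 to 34932 in sub, 604 to 2084 in low and 548 to 922 in high. That of 10 stellate and mesenchymal markers was 22309 to 39588 in neg, 28558 to 36857 in sub, 857 to 2704 in low and 682 to 2789 in high. The sum of 10 biliary markers was 435 to 1019 in neg, 19790 to 37286 in sub, 67232 to 92196 in low and 63605 to 71912 in high. Hepatocyte markers summed to 395 to 728 in neg, 4442 to 7437 in sub, 13822 to 21610 in low and 17019 to 20762 in high. Kupffer and macrophage markers were at 0 to 1526, lymphocyte markers at 20.3 to 1142 and megakaryocyte and platelet markers at 0 outside low 1 (100). In limma, all 10 endothelial markers fell from neg to low and 9 from neg to high, 7 and 8 biliary markers rose, 3 and 4 hepatocyte markers rose, and 7 and 7 stellate markers fell. The shares over all genes were 2.55% higher and 2.15% lower from neg to low, and 2.44% and 2.25% from neg to high. Of the Kupffer and macrophage list 1 gene passed: Csf1r, a receptor of macrophages, rose from 0 in all neg libraries to 873 ± 237 in low and 729 ± 214 in high (adjusted p 0.0162 and 0.0189), beside C1qa and C1qb at 0 in all low and high libraries. Epcam, Spp1, Cftr, Pkhd1 and Onecut1 of the biliary list were at 0 in all neg libraries, Lyve1 and Emcn of the endothelial list in all low libraries, and Emcn and Eng in all high libraries. The part of these shifts in cell type in the ETS differences was not tested.

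**Figure D4:**
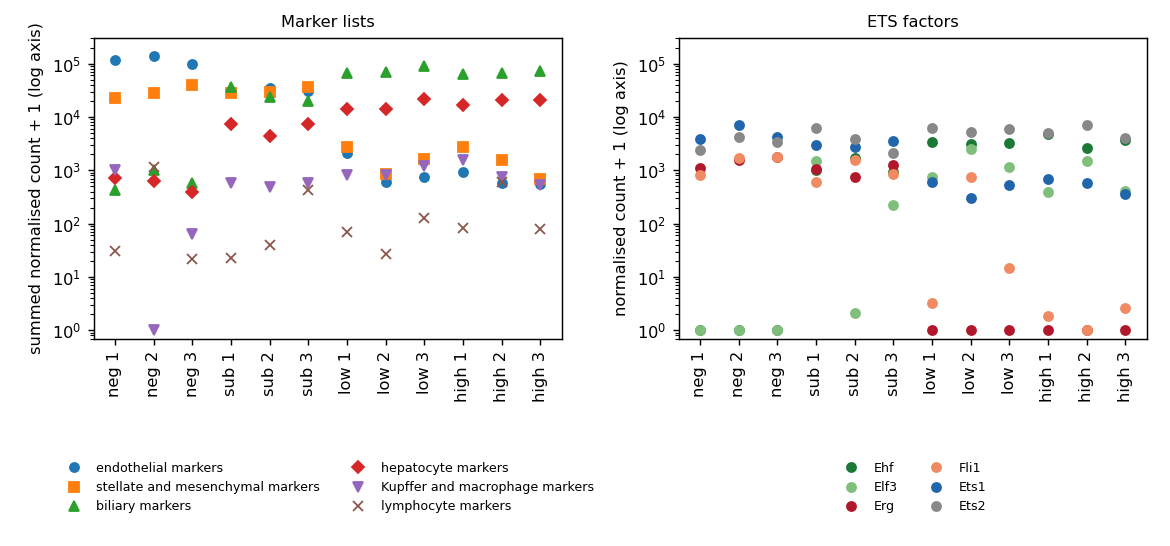
Summed normalised count + 1 of 6 marker lists (left) and normalised count + 1 of 6 of the ETS genes (right) on log axes in each of the 12 libraries. Endothelial marker sums are 97392 to 141705 in neg and at most 2084 in low and high, while biliary marker sums are at most 1019 in neg and at least 63605 in low and high.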

How the data were processed

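Total RNA was sequenced from 12 libraries of sorted liver cells, 3 for each of 4 EGFP populations, and each sample was grouped by its title. RNA was isolated with a micro-scale kit, treated with DNase for 30 min and made into stranded total RNA libraries, per the labels' protocols. Mm10, Salmon and DESeq2 1.26.0 are named, per the submitters' processing notes, and the use of strand in counting is not given in the sources used here. The authors deposited normalised counts, 1 signal value for each gene in each library. All values above 0 were whole multiples of the column's smallest value (100% in each library, tolerance 0.001), so whole reads were recovered by division and used for count tests. Unused sample columns numbered 0.

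Genes with a mean of at least 10 (16128, holding 99.9% of the summed values) were fitted with limma 3.58.1 in R 4.3.3 on log2(normalised count + 1), with a variance trend and population as the only term, two-sided. Log2 fold changes on this scale understate changes of low values. The edgeR 4.0.16 quasi-likelihood and DESeq2 1.42.0 tests on recovered reads of all 12 libraries called 207 and 1698 genes in sub against neg, where limma called 192. A difference of 3 libraries against 3 cannot go below 0.1 in an exact permutation test. Coordinates are from GENCODE M21 on GRCm38, the mm10 assembly. Bounds and counting intervals cover counting error only, since no molecular identifiers are mentioned.

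The 9 genes and all gene lists were chosen with earlier results of these data known. Named genes were the 9 members, other ETS genes past the threshold, up to 4 genes per list with the smallest F test p, and the 3 genes most correlated with Ehf, Elf3, Erg and Fli1. Genes named beyond this (Elf2, Gabpa and list members called in a contrast) were chosen after their values were seen. Some genes that the rule selects are not reported here. Other settings tried were a pseudocount of 0.5 or 5, a minimum mean of 100 or none, equal totals, quantile normalisation, a replicate block, no variance trend, array weights, fits of 2 populations, each library left out, a limit of 1 on the log2 fold change, edgeR and DESeq2.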

Additional observations from a re-analysis of the deposited data

How the results depend on the processing

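All 14 calls of ETS genes kept their direction under each of the 25 alternatives that gave a value for them, and 5 stayed past the threshold in all of them. The number of the 9 genes called in sub against neg was 1, with 2 in edgeR and in DESeq2, 0 in a fit of only these 2 populations, and 1 to 2 when each library was left out. In low against sub it was 1, with 2 at a pseudocount of 5, without a filter, at a mean of at least 100 and in DESeq2, 0 with quantile normalisation, array weights or the 2-population fit, and 0 to 2 by leaving out libraries. In high against low it was 0, with 1 in DESeq2. In low against neg it was 5, with 3 without the variance trend, 4 in DESeq2 and in the 2-population fit and 3 to 5 by leaving out libraries. In high against neg it was 5 and stayed between 4 and 6. In high against sub it was 2, with 1 at a pseudocount of 0.5 or with quantile normalisation, 3 at a mean of at least 100, 4 in DESeq2, 0 in the 2-population fit and 1 to 3 by leaving out libraries. The F test passed 5, and 3 to 5 when libraries were left out. Deviations of same-numbered libraries of different populations had 18 correlations of -0.02 to 0.03, 0 of them over 0.1. The own number was highest in 12 of 18, a hint of pairing in the data. The reported fits did not treat the numbers as pairs. The labels also give same-numbered libraries a shared code without saying what it stands for. With the replicate block 1, 0, 0, 5, 5 and 0 genes were called in the 6 contrasts in the order above and 6 in the F test. The block ended every call of low or high against sub: Erg in low against sub (adjusted p 0.0596) and in high against sub (0.0511) and Fli1 in high against sub (0.0578). A limma fit on only the libraries of the count tests was the same as the reported fit, because all 12 were used. DESeq2 gave no adjusted p for Elk3.

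Fitted changes turned sign when 1 library was left out in uncalled contrasts only. In high against low the lowest and highest values were -0.063 and 0.36 for Ehf, -0.38 and 0.87 for Elf1, -0.092 and 0.47 for Ets1, -0.39 and 0.028 for Ets2, -0.37 and 4.12 for Elk3, and -0.70 and 0.33 for Etv6. In sub against neg they were -0.18 and 0.57 for Ets2 and -0.41 and 4.82 for Etv6. For Elf1 they were -1.20 and 0.077 in low against sub and -0.75 and 0.029 in high against sub. The cause was not tested. Counts over all genes also moved: DESeq2 called 1698, 1593, 646, 2352, 2257 and 1485 genes in the 6 contrasts where limma called 192, 120, 0, 757, 757 and 159, and fits of 2 populations called 0, 0, 0, 203, 341 and 8. Without the variance trend low against sub had 195 calls and high against low 22, array weights gave 70 and 1, and high against low had 1 without a filter or with the block. Leaving out a library gave 149 to 317 calls in sub against neg, 42 to 170 in low against sub, 0 to 35 in high against low, 465 to 737 in low against neg, 467 to 797 in high against neg and 74 to 245 in high against sub. Quantile normalisation moved the median log2 fold change of all genes from 0.13 to 0 in high against neg and from 0.20 to 0.04 in high against sub. The median SE of 2.35 over all genes limits what 3 libraries per population can show, and a value of 0 allows up to 3 reads, 2.07 to 3.67 normalised counts.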

Other observations

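The libraries of a population spread widely for some ETS genes. Elf3 was at 1475, 1.14 (1 read) and 226 in sub, Etv6 at 866, 0 and 1398 in neg, Elk3 at 32.9, 505 and 0 in high, and Fli1 at 2.23, 763 and 14.0 in low. Ehf in low had an SD of 131 around a mean of 3248.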
